A study of Mus musculus with 6 samples.

Results

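Microglia are the resident macrophages of the brain. The 32 genes described here are 12 grouped as genes of microglia at rest (homeostatic genes) and 20 grouped as genes of activated microglia (activation genes). The grouping was taken as given and not tested, and a homeostatic gene need not be limited to microglia at rest. The members were taken by symbol from a table of read counts for 48709 Ensembl genes, using GENCODE M21 on mm10, and all 32 had a row. Bulk RNA sequencing of whole cerebellum gave 3 libraries from SCA7 knock-in mice (KI) and 3 from wild-type mice (WT). All mice were C57BL/6J and 40 weeks old. The KI mice carried the 140Q/5Q genotype, 1 Atxn7 allele of 140 glutamine codons and 1 of 5, and the labels name them Kihet. SCA7, spinocerebellar ataxia type 7, is a degeneration of cerebellum and retina caused by a longer glutamine repeat in ataxin-7, which belongs to the SAGA co-activator complex. The comparison asks which cerebellar transcripts differ with that allele.

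Resting microglia survey the tissue and depend on Csf1r signalling for survival. They read neuronal and damage signals through receptors such as Cx3cr1, which binds fractalkine, and P2ry12, which binds ADP. In mouse models of neurodegeneration, microglia that meet damaged cells or lipid debris lower many homeostatic genes and raise a lysosomal, lipid-handling and antigen-presenting programme. The receptor Trem2, which signals through the adaptor Tyrobp, is needed for the full form of that programme. Several activation genes, among them Ctsb, Ctsd, Cd9, Csf1, Fabp5, Axl and Lpl, are also transcribed by other cells of the brain, so whole-tissue counts do not assign them to microglia.

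No homeostatic and no activation gene changed past the threshold, an adjusted p at or under 0.05 in edgeR's quasi-likelihood test over 16699 tested genes. Of the 32 members 30 passed the filter on low counts, and 0 were called, against 1.90% of all tested genes (0.629% higher and 1.28% lower in KI, or 105 and 213 genes, against 323 and 190 when scaled by library size alone). At an unadjusted p at or under 0.05 there were 6 of the 30 (20%), 3 with higher and 3 with lower values in KI, against 18.1% of all tested genes. DESeq2 called 1 member, Cx3cr1, against 5.43% of all genes it tested, and limma-voom called 0, against 1.66%. The groups did not overlap in 9 of the 30 (30%), against 23.8% of all tested genes. These shares lie near those of all genes. The median log2 fold change was 0.03 for the 12 homeostatic and 0.08 for the 18 tested activation genes, against 0.01 over all tested genes. The homeostatic median was -0.02 without KI replicate 1 and also without WT replicate 2.

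The libraries held 34630391 to 39826478 counts in KI and 39528292 to 49127673 in WT. A bulk count cannot tell fewer cells of a type from less RNA per cell. CPM below is a gene's count relative to its library's total, after scaling with trimmed mean of M-values (TMM), and means are given with the SD over 3 libraries. Markers of some other cell types were called lower in KI. Of 10 Purkinje cell markers 6 were called lower, with Rgs8, Car8 and Calb1 at log2 fold changes of -1.01, -0.55 and -0.50. All 10 had a negative log2 fold change. Of 12 astrocyte markers 4 were called lower, among them Aldoc (-0.63), Gja1 (-0.49) and Aqp4 (-0.54), and 11 had a negative log2 fold change. Of 12 oligodendrocyte markers 2 were called lower, among them Ugt8a (-0.50). The log2 fold change was negative in 7 of the 12 and positive in 5, with a median of -0.06. Of 10 granule neuron markers Cbln3 (-0.46) and Grm4 (-0.74) were called lower, and 9 had a negative log2 fold change. The mean log2 CPM of 7 tested brainstem markers was 3.67, 1.42 and 2.94 in KI replicates 1 to 3, against 0.46, 1.68 and -0.32 in WT replicates 1 to 3. KI replicate 2 thus lay within the WT range. The summed Purkinje and astrocyte markers of KI replicate 2, at 10840 and 6432 CPM, lay below all WT libraries. The part of these shifts in the values below was not tested.

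Microglial genes are known to be read through PU.1, an ETS-family factor that binds purine-rich DNA around GGAA. The bases before the RefSeq start of the 4 members that lead the comparison by unadjusted p are shown, a pair from each group of genes. Coordinates are on GRCm38.p6, sequence from RefSeq, each 5′ to 3′ in the direction of the gene, 250 bases long and ending at the base before the start. Capitals mark GAGGAA or GGAAGT on either strand, both of which hold GGAA and can overlap in 1 site.
Trem2, chr17:48346151-48346400, plus strand: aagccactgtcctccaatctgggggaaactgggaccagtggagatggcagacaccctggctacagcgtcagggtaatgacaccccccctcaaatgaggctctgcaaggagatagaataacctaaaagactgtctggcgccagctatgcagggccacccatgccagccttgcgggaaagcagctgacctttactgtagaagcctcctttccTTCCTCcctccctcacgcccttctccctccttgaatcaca
Cx3cr1, chr9:120068297-120068546, minus strand: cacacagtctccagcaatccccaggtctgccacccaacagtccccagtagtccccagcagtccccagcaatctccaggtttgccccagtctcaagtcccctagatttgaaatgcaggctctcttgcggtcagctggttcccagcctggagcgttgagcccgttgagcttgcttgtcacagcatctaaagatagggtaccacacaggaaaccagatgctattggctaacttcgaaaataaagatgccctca
Cst7, chr2:150570165-150570414, plus strand: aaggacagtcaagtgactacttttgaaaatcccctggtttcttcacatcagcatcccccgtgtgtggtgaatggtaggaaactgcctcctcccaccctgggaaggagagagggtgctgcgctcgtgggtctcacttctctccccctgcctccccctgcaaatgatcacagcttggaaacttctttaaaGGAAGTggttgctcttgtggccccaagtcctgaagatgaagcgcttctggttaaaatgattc
Gpnmb, chr6:49036268-49036517, plus strand: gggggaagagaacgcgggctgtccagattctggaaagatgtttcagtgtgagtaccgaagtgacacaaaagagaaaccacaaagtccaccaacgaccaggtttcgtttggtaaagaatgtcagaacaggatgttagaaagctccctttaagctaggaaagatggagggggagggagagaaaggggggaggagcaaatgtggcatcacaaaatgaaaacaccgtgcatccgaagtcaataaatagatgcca
Trem2 held GAGGAA on the opposite strand 40 bases before the start, and Cst7 held GGAAGT on its own strand 62 bases before it. The windows of Cx3cr1 and Gpnmb held neither word. Promoters were at hand for 23 of the 32 members. At least 1 of the words was present in 8 of 9 homeostatic genes, 9 of 14 activation genes and 40.2% of 27025 genes with a promoter in the RefSeq table. GAGGAA was in 10 of the 23 (25.9% of all) and GGAAGT in 9 (22.2% of all). The words were chosen after the windows had been read, and a match in a window is a description, not a binding site.

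Levels between genes are compared as mean CPM per kilobase of annotated exon. The homeostatic genes spanned 0.667 to 9.25 on this scale in KI and 0.641 to 9.19 in WT. By the mean of both groups Csf1r was highest, followed by P2ry12, Cx3cr1 and Tmem119, and Itgam was lowest. P2ry12 and Cx3cr1 stood in a different order in each group, at 6.52 and 5.58 CPM per kilobase in KI, against 6.76 and 6.96 in WT. The activation genes spanned a far wider range, led by the lysosomal proteases. Ctsb had 176 CPM per kilobase in KI and 185 in WT, Ctsd 132 in KI and 128 in WT, and Ctss 63.7 in KI and 60.9 in WT. At the low end, the genes held to be most specific to activated microglia were scarce. Cst7 stood at 0.476 CPM per kilobase in KI and 0.228 in WT, Itgax at 0.142 in KI and 0.0866 in WT, and Clec7a at 0.727 in KI and 0.652 in WT. The chemokine genes Ccl3 and Ccl4 did not pass the filter. Ccl3 had 7, 8 and 15 reads in the KI libraries, against 8, 14 and 9 in the WT libraries. Ccl4 had 6, 11 and 3 reads in KI, against 7, 3 and 4 in WT. Both genes overlap between the groups at a few reads per library, so no difference is detectable at this depth.

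**Figure D1:**
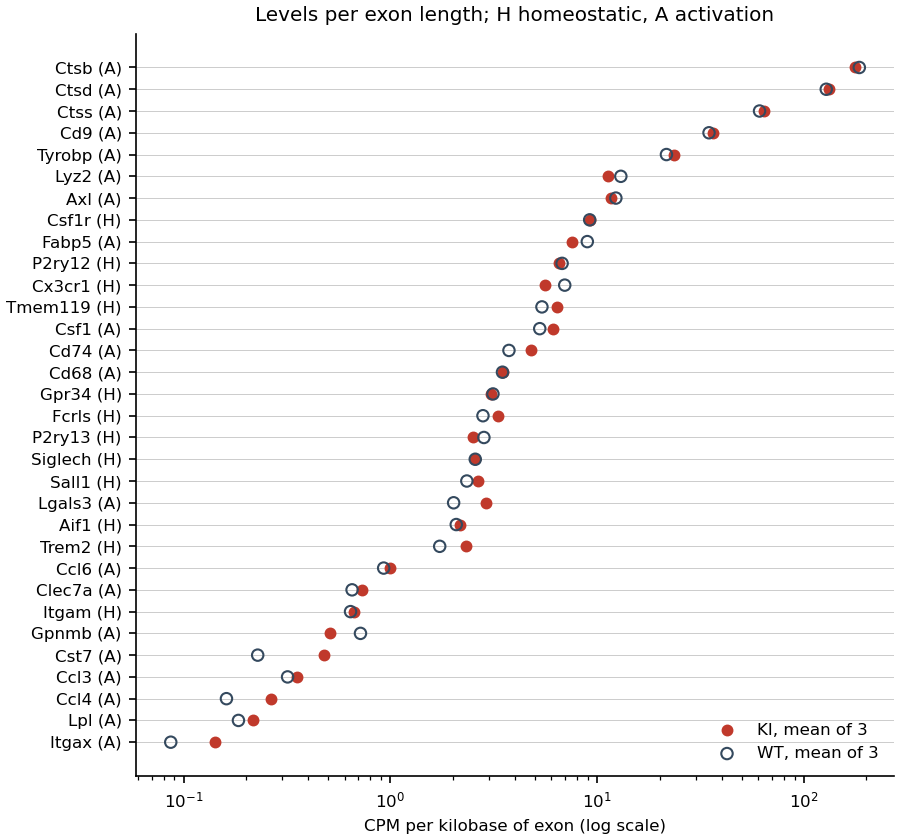
Mean level of each member on a log axis, in CPM per kilobase of exon (filled points KI, open points WT, mean of 3 libraries each, H homeostatic, A activation). The lysosomal proteases Ctsb, Ctsd and Ctss lie at the top, at 176, 132 and 63.7 in KI, and Itgax at the bottom, at 0.142 in KI.

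Among the homeostatic receptors, Cx3cr1 had the smallest unadjusted p. Cx3cr1 (ENSMUSG00000052336, chromosome 9, 119901616 to 120069879, minus strand) had 26.4, 25.5 and 23.6 CPM in the KI libraries, against 31.2, 30.3 and 32.5 CPM in the WT libraries. Every KI library lay below every WT library. The log2 fold change was -0.32 ± 0.09 (SE, 3 against 3 libraries), with a 95% interval of -0.51 to -0.13 and an edgeR adjusted p of 0.0938. The adjusted p over 15 other settings ran between 0.0258 and 0.287. It passed the threshold in 4 of them, at 0.0394 with DESeq2 and 0.0409 with offsets for GC content and length, a setting that called 4.33% of all genes. The other passes were in edgeR with the replicate number as a block, at 0.0258, and with block and offsets, at 0.0261. The block alone called 2034 of 16699 genes and is no basis for a call, as described below. The ligand gene Cx3cl1, which encodes fractalkine, had a log2 fold change of 0.13 ± 0.12 (edgeR adjusted p 0.612).

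The ADP receptor gene P2ry12 did not follow Cx3cr1. It had 19.2, 16.5 and 14.1 CPM in KI, against 16.7, 16.7 and 18.2 CPM in WT. KI values thus lay on both sides of the WT values. Its log2 fold change was -0.05, with a 95% interval of -0.32 to 0.22. P2ry13, a second ADP receptor beside it on chromosome 3, averaged 6.34 ± 0.77 CPM in KI and 7.15 ± 0.56 CPM in WT (SD, n = 3 each), and Gpr34, a lysophosphatidylserine receptor, 6.40 ± 0.86 CPM in KI and 6.53 ± 1.07 CPM in WT. Csf1r, the receptor for Csf1 and interleukin 34, had 54.7, 58.3 and 47.3 CPM in KI, against 48.4, 53.8 and 57.0 CPM in WT, and the groups overlapped. Its 95% interval was -0.21 to 0.23 on the log2 scale. Exons of Csf1r overlap those of Hmgxb3 on the opposite strand over 15.1% of their length, and the strand setting of the counting is not given in the sources used here.

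Trem2 ran the other way from Cx3cr1. Trem2 (ENSMUSG00000023992, chromosome 17, 48346401 to 48354147, plus strand) had 10.8, 11.2 and 12.4 CPM in KI, against 7.93, 8.18 and 9.58 CPM in WT. Every KI library lay above every WT library. The log2 fold change was 0.42 ± 0.12, with a 95% interval of 0.15 to 0.69 and an edgeR adjusted p of 0.111, ranging from 0.0211 to 0.327 over 15 other settings. Trem2 passed the threshold only in edgeR with the replicate block, at 0.0248 without and 0.0211 with GC and length offsets. The adaptor gene Tyrobp (DAP12) had 16.2, 14.1 and 17.0 CPM in KI, against 14.8, 12.7 and 15.9 CPM in WT. These groups overlapped, and the log2 fold change of Tyrobp was 0.13, with a 95% interval of -0.14 to 0.39. Of 14 tested genes that act below Trem2 and Tyrobp, among them Syk, Plcg2 and Inpp5d, 0 were called in edgeR and 1, Vav3, had an unadjusted p at or under 0.05. Vav3, a guanine nucleotide exchange factor, had a log2 fold change of -0.33 ± 0.09 (edgeR adjusted p 0.0889).

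As a description of the members with the smallest p, the level of Trem2 was also set against the mean log2 CPM of the other 11 homeostatic genes in the same library. This difference was -0.03, 0.16 and 0.33 in KI, against -0.31, -0.23 and -0.20 in WT, with no overlap. For Cx3cr1 it was 1.37, 1.45 and 1.34 in KI, against 1.85, 1.82 and 1.72 in WT, again with no overlap. The other 11 genes include Cx3cr1 for Trem2 and Trem2 for Cx3cr1. Both genes were picked by p in the same libraries, so this scale is no separate test. Cst7, Gpnmb and Lgals3, set against all 12 homeostatic genes, did not overlap between KI and WT on this scale either. Fcrls, Fabp5, Itgax and Ctsb, which did not overlap in CPM, overlapped here. P2ry13 overlapped in CPM and did not overlap here, at a mean of -0.78 in KI and -0.53 in WT.

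Of the remaining homeostatic genes, Fcrls and Tmem119 came next by unadjusted p. Fcrls, an Fc receptor-like gene, had 8.07, 6.98 and 8.10 CPM in KI, against 6.72, 6.13 and 6.77 CPM in WT, without overlap (log2 fold change 0.24 ± 0.12, edgeR adjusted p 0.346). Tmem119, a membrane protein used as a microglia marker, had 14.53, 15.01 and 14.73 CPM in KI, against 10.24, 12.65 and 14.62 CPM in WT. The WT libraries of Tmem119 were the more spread, and WT replicate 3 overlapped the KI range (log2 fold change 0.24 ± 0.13, edgeR adjusted p 0.363). The fold change of Tmem119 was 0.03 with offsets for GC content and length and 0.10 without WT replicate 1. Sall1, a transcription factor that maintains microglial identity, averaged 14.01 ± 1.74 CPM in KI and 12.3 ± 1.32 CPM in WT. Siglech, a sialic acid-binding lectin, averaged 8.66 CPM in KI and 8.68 CPM in WT, and Aif1, which encodes Iba1, 3.32 CPM in KI and 3.19 CPM in WT. Itgam, the integrin subunit CD11b, averaged 3.35 CPM in KI and 3.22 CPM in WT. In GENCODE M21 68.7% of its exon length is shared with Gm49368 on the same strand, which had at most 1 read per library, so the level of Itgam is uncertain.

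**Figure D2:**
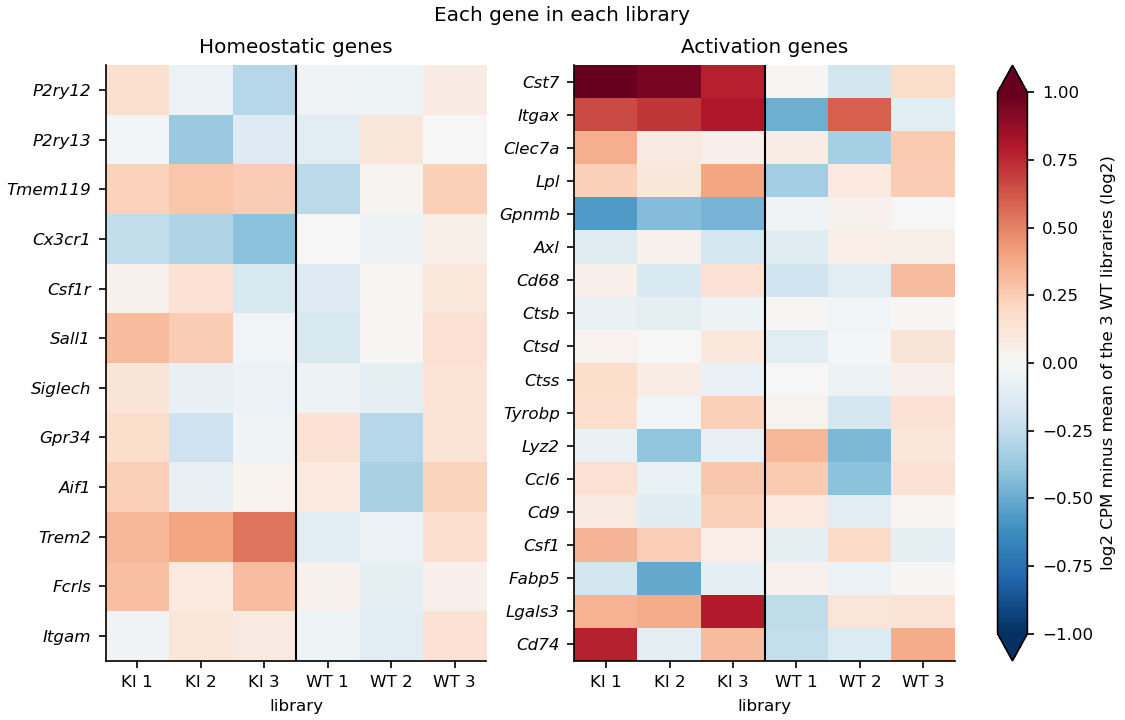
Colour map of the 30 tested members (rows) in the 6 libraries (columns, KI left of the line, WT right of it), as log2 CPM minus the mean of the 3 WT libraries. Cx3cr1 and Gpnmb are blue and Trem2, Cst7 and Lgals3 are red in all 3 KI libraries, and Cd74 is deep red in KI replicate 1 alone.

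Cst7, which encodes cystatin F, an inhibitor of lysosomal cysteine proteases, had the largest fold change of the members and few reads. Cst7 (ENSMUSG00000068129, chromosome 2, 150570415 to 150578944, plus strand) had 19, 19 and 15 reads in KI, against 11, 8 and 10 in WT. Scaled to depth these were 0.514, 0.477 and 0.418 CPM in KI, against 0.225, 0.191 and 0.258 CPM in WT. The groups did not overlap. The log2 fold change was 1.06 ± 0.34, with a wide 95% interval of 0.31 to 1.81 and an edgeR adjusted p of 0.147 (0.101 to 0.341 over 14 other settings). Itgax, the integrin subunit CD11c, had 0.650, 0.678 and 0.724 CPM in KI, against 0.266, 0.620 and 0.362 CPM in WT. WT replicate 2 lay just under the KI libraries, and the 95% interval, 0.964-fold to 2.83-fold, included no change (edgeR adjusted p 0.308). The log2 fold change of Itgax, 0.72, was 0.46 without WT replicate 1 and 1.1246 without WT replicate 2.

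Gpnmb and Lgals3, both known from lipid-laden phagocytes, differed in sign. Gpnmb, a transmembrane glycoprotein (ENSMUSG00000029816, chromosome 6, 49036546 to 49070929, plus strand), had 3.14, 3.44 and 3.37 CPM in KI, against 4.548, 4.796 and 4.649 CPM in WT. All KI values were lower than all WT values, with narrow spread in both groups. The log2 fold change was -0.49 ± 0.14 (95% interval -0.81 to -0.18, edgeR adjusted p 0.113, and 0.056 to 0.283 over 15 other settings). Lgals3, which encodes galectin-3 (ENSMUSG00000050335, chromosome 14, 47367751 to 47386160, plus strand), had 4.76, 4.85 and 6.49 CPM in KI, against 3.11, 4.06 and 4.11 CPM in WT. All KI values were higher, KI replicate 3 most so. The log2 fold change was 0.51 ± 0.18 (95% interval 0.11 to 0.92, edgeR adjusted p 0.179, and 0.0545 to 0.486 over 15 other settings).

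**Figure D3:**
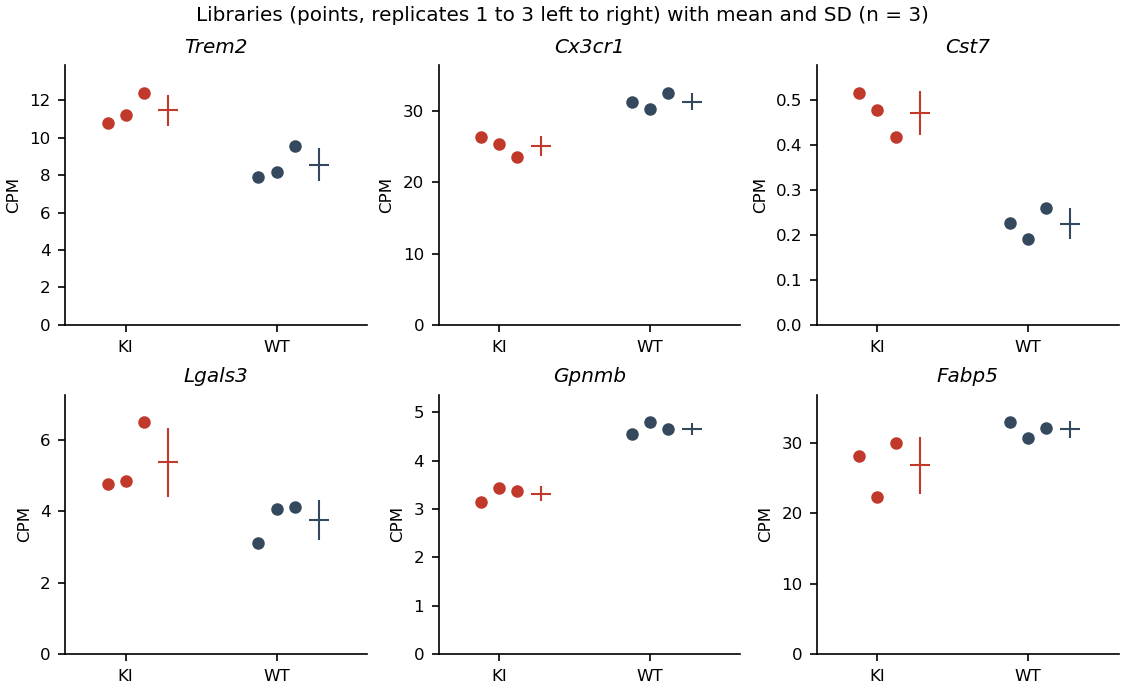
CPM of the 6 members with an unadjusted p at or under 0.05, 1 point per library (replicates 1 to 3 left to right), with mean and SD beside them (n = 3), KI left and WT right, axes from 0. The groups do not overlap in any of the 6: Trem2 spans 10.8 to 12.4 CPM in KI and 7.93 to 9.58 CPM in WT, and Cx3cr1 23.6 to 26.4 CPM in KI and 30.3 to 32.5 CPM in WT.

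The lipid-handling genes differed among themselves. Fabp5, a fatty acid-binding protein, had 28.15, 22.32 and 29.99 CPM in KI, against 32.94, 30.68 and 32.18 CPM in WT. KI values were lower, with KI replicate 2 the lowest (log2 fold change -0.25 ± 0.11, edgeR adjusted p 0.270). Without KI replicate 2 the fold change of Fabp5 was -0.14. Lpl, lipoprotein lipase, averaged 2.27 ± 0.23 CPM in KI and 1.93 ± 0.41 CPM in WT, with overlap. Axl, a receptor kinase that binds Gas6, averaged 58.3 ± 4.64 CPM in KI and 61.8 ± 4.50 CPM in WT, with overlap. Its ligand gene Gas6 had a log2 fold change of 0.27 ± 0.10 (edgeR adjusted p 0.194). Csf1, the growth factor that Csf1r binds, had 35.1, 32.9 and 29.0 CPM in KI, against 25.9, 31.7 and 25.9 CPM in WT, with WT replicate 2 inside the KI range (log2 fold change 0.22 ± 0.11, edgeR adjusted p 0.330). The other ligand gene of that receptor, Il34, had a log2 fold change of 0.41 ± 0.14 (edgeR adjusted p 0.177).

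The lysosomal protease genes were the most abundant members and had the narrowest intervals. Ctsb had 1067, 1043 and 1080 CPM in KI, against 1127, 1100 and 1129 CPM in WT. The groups did not overlap, yet the log2 fold change was -0.07, with a 95% interval of -0.22 to 0.07. Exons of Ctsb overlap those of Fdft1 on the opposite strand over 12.8% of their length. Ctsd had 308.6, 300.6 and 323.9 CPM in KI, against 278.6, 297.2 and 327.7 CPM in WT. The groups overlapped, with a 95% interval of -0.13 to 0.23, and 34.4% of its exon length is shared with Gm49369 on the same strand, so the level of Ctsd is uncertain. Ctss, a protease of antigen processing, had 93.5, 87.2 and 78.9 CPM in KI, against 83.0, 79.7 and 85.4 CPM in WT, with overlap and a 95% interval of -0.12 to 0.25. Cd68, a glycoprotein of phagocyte lysosomes, averaged 4.38 CPM in both groups. The tetraspanin gene Cd9 averaged 74.5 ± 9.19 CPM in KI and 70.9 ± 5.19 CPM in WT, and the lysozyme gene Lyz2 14.8 ± 1.82 CPM in KI and 17.1 ± 4.51 CPM in WT. Clec7a, the glucan receptor dectin-1, and the chemokine gene Ccl6 also overlapped, with log2 fold changes of 0.16 and 0.10.

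Cd74 encodes the invariant chain of MHC class II molecules. It had 10.6, 5.75 and 7.71 CPM in KI, against 5.22, 5.61 and 8.01 CPM in WT. KI replicate 1 was the highest library, and WT replicate 3 lay above KI replicates 2 and 3 (log2 fold change 0.35 ± 0.23, edgeR adjusted p 0.452). The fold change of Cd74 was 0.11 without KI replicate 1 and 0.22 without WT replicate 1, 0.54 without KI replicate 2 and 0.55 without WT replicate 3, and 0.20 with offsets for GC content and length. Of 8 tested MHC class II genes 0 were called in edgeR, with a median log2 fold change of 0.42. Among them H2-DMa had an unadjusted p at or under 0.05, at a log2 fold change of 0.41 ± 0.16 (edgeR adjusted p 0.212). The summed level of the list was 21.5, 14.3 and 19.8 CPM in KI, against 12.9, 12.5 and 16.4 CPM in WT. As with Cd74, KI replicate 1 was highest and KI replicate 2 lowest within KI.

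**Figure D4:**
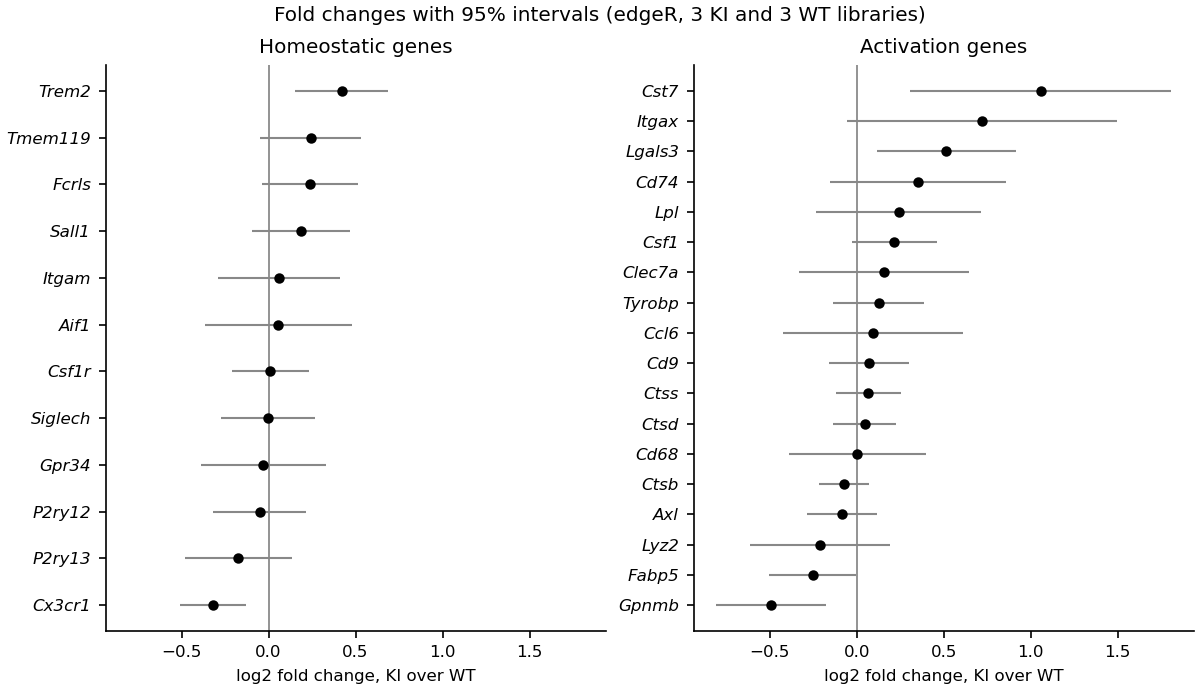
Log2 fold changes of the 30 tested members, KI over WT, with 95% intervals from the edgeR fit (3 libraries a group), homeostatic genes left and activation genes right, each sorted by value. Intervals leave out 0 for 6 members, Trem2, Cst7 and Lgals3 above it and Cx3cr1, Gpnmb and Fabp5 below it.

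The intervals bound how large an unseen difference could be. They stayed within a 1.5-fold change in either direction for 11 of 12 homeostatic genes, the exception being Trem2. For the activation genes this held in 9 of 18. Intervals reached a 1.5-fold higher level in 7 of the 18 (Cst7, Itgax, Clec7a, Lpl, Ccl6, Lgals3 and Cd74) and a 1.5-fold lower level in Gpnmb and Lyz2.

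Further genes of microglia and their surroundings gave few or no calls in edgeR. Over all tested genes 18.1% had an unadjusted p at or under 0.05 and 1.90% were called. Of 21 other tested homeostatic genes, the one with the most counts being Itgb5 (log2 fold change -0.06), 0 were called, 2 had an unadjusted p at or under 0.05, and the median log2 fold change was 0.07. Of 26 other activation genes 0 were called and 4 had an unadjusted p at or under 0.05, with a median of 0.06. Among these were B2m, the light chain of MHC class I, at 0.33 ± 0.08 (edgeR adjusted p 0.0819) and Csf2ra, the GM-CSF receptor subunit, at 0.48 ± 0.13 (edgeR adjusted p 0.0984). Fth1, the ferritin heavy chain and the gene with the most counts in the list, was at -0.22 ± 0.09 (edgeR adjusted p 0.230). Of 15 transcription factor genes 0 were called and 2 had an unadjusted p at or under 0.05, with Mef2a, the gene with the most counts, at a log2 fold change of -0.10 and Spi1, which encodes PU.1, at 0.37 ± 0.21 (edgeR adjusted p 0.381). Of 13 tested genes in a list for ligands of member receptors 0 were called and 3 had an unadjusted p at or under 0.05. This list also holds the protease genes Adam10 and Adam17, and Tgfb1 and Tgfb2, whose receptor is not a member. Apoe, a lipid carrier bound by Trem2 and the gene of the list with the most counts, was at 0.11 ± 0.14. Of 17 other chemokine and receptor genes 6 (35.3%) had an unadjusted p at or under 0.05, against 18.1% of all tested genes. Of the 6, 4 were higher and 2 lower in KI, among them Ccl2 (1.33 ± 0.45, edgeR adjusted p 0.169) and Cxcl10 (1.35 ± 0.53, edgeR adjusted p 0.223). Cxcl10 had 4.11, 0.753 and 1.23 CPM in KI, against 0.635, 0.931 and 0.827 CPM in WT, with KI replicate 1 far above the others and KI replicate 2 within the WT range. In that list 1 gene passed the threshold: Ackr1, a decoy chemokine receptor of venules and Purkinje cells, fell to 44.0 ± 6.49 CPM in KI, against 67.6 ± 4.32 CPM in WT (log2 fold change -0.62, edgeR adjusted p 0.0227).

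Markers of other immune cells were low. Of 11 border macrophage markers 0 were called in edgeR (1 at an unadjusted p at or under 0.05, Siglec1), and their summed level was 16.3 to 18.3 CPM in KI and 15.4 to 18.6 CPM in WT. Of 12 monocyte and neutrophil markers 6 were tested, 0 called and 2 at an unadjusted p at or under 0.05, and the summed level, mostly from Vcan, was 22.5 to 28.5 CPM in KI and 27.5 to 28.3 CPM in WT. The neutrophil gene Ly6g had 0 to 2 reads in every library. Of 12 lymphocyte markers 4 were tested, 0 called and 0 at an unadjusted p at or under 0.05, with sums of 7.91 to 11.6 CPM in KI and 7.52 to 10.1 CPM in WT and 1 or 2 reads of Cd3e in each library. Of 12 endothelial and pericyte markers, 10 choroid plexus markers and 5 blood markers 0 were called in edgeR (3, 1 and 1 at an unadjusted p at or under 0.05), with sums of 469.5 to 530.7, 232.0 to 1857 and 84.4 to 104.8 CPM in KI, against 537.9 to 608.5, 890.6 to 2755 and 101.6 to 110.9 CPM in WT. Of 14 brainstem markers only 7 passed the filter on low counts. Of these 7, 6 had an unadjusted p at or under 0.05, 5 higher and 1 lower in KI. Their median log2 fold change over all 7 was 2.99. The summed level of all 14 overlapped between the groups, at 139.4, 75.26 and 105.2 CPM in KI, against 86.17, 89.97 and 94.22 CPM in WT. KI replicate 2 had the lowest sum of all libraries. The 1 called was Slc18a2, the monoamine transporter of vesicles, higher in KI (log2 fold change 3.74 ± 0.78, edgeR adjusted p 0.0436). The summed astrocyte, oligodendrocyte, Purkinje and granule neuron markers spanned 5723 to 6432, 7566 to 7922, 9058 to 10840 and 4184 to 5007 CPM in KI, against 7974 to 8209, 7590 to 9916, 13730 to 15540 and 5307 to 5874 CPM in WT.

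The general level of microglial genes varied between libraries of both groups. The mean log2 CPM of the 12 homeostatic genes was 3.46, 3.34 and 3.34 in KI, against 3.28, 3.26 and 3.45 in WT. That of the 18 activation genes was 3.69, 3.53 and 3.68 in KI, against 3.44, 3.44 and 3.61 in WT. KI replicate 1 and WT replicate 3 were the highest of their groups in both lists, and WT replicate 3 lay above KI replicate 2 in both. The groups therefore overlapped in both lists. They also overlapped for the other homeostatic, other activation and MHC class II genes, the genes below Trem2 and Tyrobp, and the ligand list. The groups did not overlap for the 15 transcription factor genes, at 3.06, 2.90 and 2.94 in KI, against 2.75, 2.85 and 2.88 in WT. Nor did they for the 17 other chemokine and receptor genes, at 1.71, 1.44 and 1.39 in KI, against 1.34, 1.21 and 1.37 in WT. In both, WT replicate 3 lay just under the lowest KI library. Of all tested genes, taken singly, 23.8% did not overlap. The summed levels of these lists ran the other way, also without overlap. For the transcription factor genes they were 435, 439.7 and 407 CPM in KI, against 444.7, 473.4 and 454.9 CPM in WT. For the chemokine and receptor genes they were 217.9, 226.8 and 211 CPM in KI, against 252.9, 245.5 and 246.4 CPM in WT. A sum is weighted to abundant genes, so it does not give a general level. Mef2a and Smad3 averaged 179 and 67.1 CPM in KI, against 192.4 and 82.6 CPM in WT. Ackr1 and Cxcl12 averaged 44.0 and 68.9 CPM in KI, against 67.6 and 80.6 CPM in WT. Log2 fold changes were positive in 9 of the 15 and 9 of the 17 genes, and negative in 6 and 8.

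**Figure D5:**
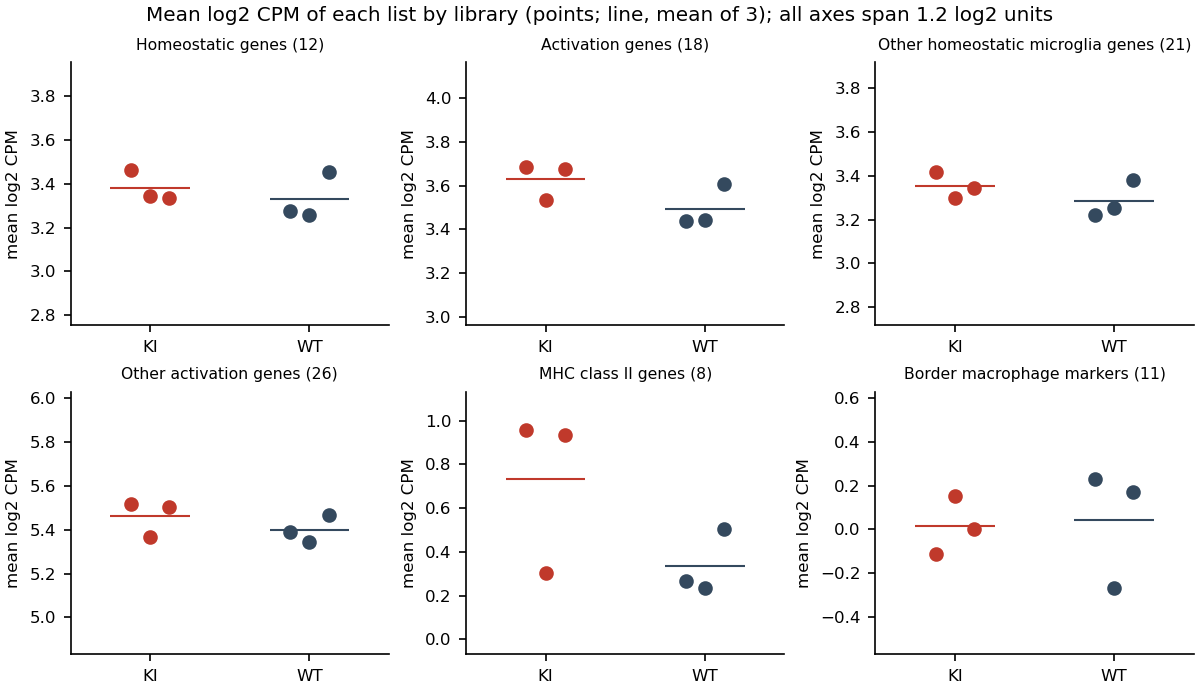
Mean log2 CPM of the homeostatic and activation genes, the other homeostatic and other activation genes, the MHC class II genes and the border macrophage markers in each library (points, replicates 1 to 3 left to right; lines, mean of 3), KI left and WT right, with every axis spanning the same range. The groups overlap in the 6 lists drawn, and the homeostatic genes lie between 3.26 and 3.46 in the 6 libraries.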

How the data were processed

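The authors deposited raw counts of reads per Ensembl gene, made from stranded polyadenylated-RNA libraries. Per the submitters' processing notes they used HTSeq 0.6.1, TopHat2 2.0.14, bcl2fastq 2.17.1.14 and Bowtie2 2.1.0, with build mm10. Neither annotation release nor strand setting is given in the sources. GENCODE M21 (mm10) matched 48349 of 48709 identifiers, the rest holding 0.0503% of counts.

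All genes were fitted in R 4.3.3 with edgeR 4.0.16 (filterByExpr at a minimum count of 10 and minimum total of 15, TMM, genotype alone, quasi-likelihood F test, Benjamini-Hochberg adjustment). Intervals are 95%, unadjusted. The common dispersion corresponded to a biological coefficient of variation of 0.115. The procedure was tested on simulated counts. DESeq2 1.42.0, limma-voom (limma 3.58.1), other scalings and filters, offsets, a replicate block and each library left out were alternatives. GC and length offsets were lowess fits per library (span 0.3).

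Members, lists, tests and named genes were chosen with earlier results of these data known. Values in every library are given for the 4 homeostatic and 6 activation genes with the smallest p, for the 3 most abundant per exon length of each and for some others. From other lists the rule took up to 3 called genes and the one with the most counts; the remaining ones were named after their values were seen. The labels do not say that libraries came from separate animals, so p-values measure the spread between samples. Libraries within a group differed beyond sampling noise (chi-square per degree of freedom 14.08 to 30.51). Depth was 34630391 to 49127673 counts.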

Additional observations from a re-analysis of the deposited data

How the results depend on the processing

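The number of activation genes called was 0 under each of the 16 alternatives run, which tested 16 to 20 of them. For the homeostatic genes it was 1 of 12 (Cx3cr1) with DESeq2, with GC and length offsets and at an adjusted p at or under 0.1, and 2 (Cx3cr1 and Trem2) with the replicate block, with or without those offsets. The number of genes called in all, 318, became 513 with library size alone, 1303 with no filter on low counts, 897 with DESeq2, 721 at an adjusted p at or under 0.1, 722 with GC and length offsets, 2034 with the replicate block and 1619 with the block and offsets together. It ranged from 39 to 858 without 1 library each, with 39, 858 and 73 without KI replicates 1, 2 and 3 and 47, 89 and 78 without WT replicates 1, 2 and 3. With library size alone the split was 323 higher and 190 lower, against 105 and 213. GC content ran differently in 1 library: across genes, log2 levels relative to the mean library had a Spearman rho with GC of -0.54 in WT replicate 1, against -0.00 to 0.31 in the other 5. Same-numbered libraries did not pair throughout: their deviations from the group means correlated at 0.00, 0.17 and 0.32. KI replicates 2 and 3 correlated best with the WT library of the same number, and KI replicate 1 with WT replicate 3, at 0.046. The labels name no batch or pairing, so the block is no basis for a call.

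Median log2 fold changes of the homeostatic genes ranged from -0.02 to 0.09 and those of the activation genes from 0.02 to 0.17 without 1 library each. Of 448 member values under alternatives 414 kept their sign, and 20 of 30 members kept it throughout, the 6 with an unadjusted p at or under 0.05 among them. The signs that turned were all of values near 0. With library size alone P2ry12 was at 0.0213, Siglech at 0.0703 and Gpr34 at 0.0416. Cd68 was at -0.0006 with RLE factors, -0.0013 with no filter, -0.0024 with DESeq2, -0.0736 with offsets and -0.0638 with block and offsets. With offsets Csf1r was at -0.0349, Siglech at 0.0352, Ctsd at -0.0866 and Tyrobp at -0.0048, and with block and offsets these were -0.0381, 0.0379, -0.0864 and -0.003. Leaving out 1 library gave ranges of -0.0953 to 0.1562 for Aif1, -0.1079 to 0.1658 for Cd68, -0.0623 to 0.0976 for Csf1r, -0.0663 to 0.0541 for Siglech, -0.1642 to 0.0528 for Gpr34, -0.1631 to 0.0577 for P2ry12, -0.01 to 0.1575 for Cd9, -0.0173 to 0.0972 for Ctsd and -0.089 to 0.228 for Ccl6. The cause was not tested. Cst7 and Itgax have no value with a mean CPM of at least 1. Depth limits Cst7, Itgax, Ccl3 and Ccl4, which had at most 27 reads in a library.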
